A study of Mus musculus with 12 samples.

Results

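The genes described here are the SMAD proteins, which carry the signal of TGF-beta family receptors into the nucleus, and the ID genes, a class of early targets of that signal, in cultured mouse ovarian follicles. The members were taken by symbol from a fixed list of 10 genes, Smad1 to Smad7 and Id1 to Id3. Of these, 9 were found among the 11806 genes of the authors' deposited table, and Smad6 was not analysed here. All 9 passed the authors' limit on low totals and had an adjusted p.

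The study set vitrified follicles, preserved by rapid cooling that turns their water into glass instead of ice, against fresh ones, to learn how far their RNA content departs from that of fresh follicles. There were 6 vitrified and 6 fresh follicles, each sequenced on its own. Mice of the outbred CD-1 stock, 16 days old, gave both groups. Vitrified and fresh follicles shared the culture too, 8 days in a bead of 0.5% alginate with recombinant follicle-stimulating hormone (rFSH) at 10 mIU/mL. Which follicles had a mouse or a culture run in common is not stated in the labels, so the p-values measure only the spread between these follicles. The table gives 1 pooled total, 1 fold change and 1 p-value per gene, so that no level per follicle or per group can be given.

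In background, ligands of the TGF-beta family bind pairs of serine/threonine kinase receptors that phosphorylate the receptor-regulated SMADs. SMAD2 and SMAD3 serve activins, TGF-beta and GDF9, and SMAD1, SMAD5 and SMAD9 serve bone morphogenetic proteins (BMPs) and anti-Müllerian hormone. Either kind joins SMAD4, the partner they share, and enters the nucleus, while SMAD6 and SMAD7 are induced as brakes on the pathway. In the follicle this signalling links the oocyte and its granulosa cells and controls their growth and hormone output. ID proteins lack a DNA-binding region and hold E proteins and other basic helix-loop-helix factors away from DNA, and their genes are among the best known direct targets of BMP signalling.

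Short stretches of Id2 and Id3 are shown because these 2 response genes had estimates on opposite sides of 0. They are the matches to SMAD motifs within the 250 bases before the transcription start of RefSeq (build GRCm38.p6), 5′ to 3′ on the strand of the gene, with 10 bases on each side. Capitals mark GGCGCC, a GC-rich element bound by BMP-activated SMADs, and CAGAC or its complement GTCTG, which holds the core of the SMAD-binding element.
Id2 (chr12:25096308-25096333, minus strand): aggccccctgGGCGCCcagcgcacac
Id3 (chr4:136143645-136143669, plus strand): tcctcggcgtCAGACcagcctaagg
Id3 (chr4:136143744-136143768, plus strand): acccttggcgGTCTGttttgaataa
The Id2 window held 1 GGCGCC, from 231 to 226 bases before that start, and 0 CAGAC on either strand. The Id3 window held 0 GGCGCC and 2 copies of CAGAC, 1 on each strand, from 167 to 163 and from 68 to 64 bases before that start. Transcripts that begin farther upstream are annotated in GENCODE M21, so that 161 of the 250 bases of the Id2 window and all 250 of the Id3 window lie in exons there, and the stretches may be transcribed.

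The promoters of Smad3 and Smad5 are shown because they belong to the mediators whose estimates lay close together below 0. Each is the full 250 bases before the RefSeq start, for Smad5 the most upstream of its 3 windows, and 0 bases of either lie in a GENCODE exon of the gene.
Smad3 (chr9:63757995-63758244, minus strand): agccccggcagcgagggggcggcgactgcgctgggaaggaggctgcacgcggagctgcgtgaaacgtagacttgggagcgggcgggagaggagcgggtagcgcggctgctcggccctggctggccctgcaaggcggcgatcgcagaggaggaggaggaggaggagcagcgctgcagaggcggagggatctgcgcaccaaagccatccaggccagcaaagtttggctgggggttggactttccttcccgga
Smad5 (chr13:56702760-56703009, plus strand): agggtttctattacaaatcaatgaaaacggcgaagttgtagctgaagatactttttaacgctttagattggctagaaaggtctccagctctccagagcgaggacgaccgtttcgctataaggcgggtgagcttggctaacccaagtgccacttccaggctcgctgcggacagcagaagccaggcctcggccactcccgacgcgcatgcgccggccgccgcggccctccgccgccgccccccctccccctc
Both of these windows held 0 GGCGCC and 0 CAGAC on either strand, and so carry no capitals. Among 32851 promoter windows of that length, 9.59% held GGCGCC and 42.2% held CAGAC on either strand. The palindrome GTCTAGAC, the optimal SMAD-binding element, was in 0.167% of the windows and in none of these 4, and no match overlapped a match to another motif. The Smad5 windows not shown did hold matches. The window chr13:56702802-56703051 held 1 GGCGCC, from 19 to 14 bases before its start. The window chr13:56703418-56703667 held 1 CAGAC, from 21 to 17 bases before its start. A match is a description of these letters and not a binding site.

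Of the 9 members 0 passed the authors' test at an adjusted p under 0.05, where 0.529% of the 10963 tested genes passed (58 genes). At an unadjusted p under 0.05 the count of members was also 0, against 7.02% of the tested genes. In the authors' deposited table the 9 adjusted p-values lay between 0.72 and 1.00. Estimates were below 0 for 5 members and above 0 for 4, where 53.2% of all tested genes had an estimate below 0. The members had a median log2 fold change of -0.38, beside -0.02 over all tested genes. That median lies at the edge of a gap between 2 sets of values, and leaving out Smad2, Smad3, Smad4, Smad5 or Id2 moved it to between -0.11 and -0.10.

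The pooled totals, divided by the length of all exons, set Id3 far above the other members. Id3 had a total of 34697 in the authors' deposited table, or 19373 per kilobase of exon, more than 99.5% of the tested genes by total. This is the level of both groups together, and was 53.0 times that of Id1 and 78.9 times that of Id2 per kilobase of exon. Next in order per kilobase of exon came Id1 at 366, Smad3 at 342 and Id2 at 245. Id1 and Smad3 changed places when the longest transcript was taken as the length, at 366 and 373. The other SMAD genes were lower, Smad2 at 93.3, Smad5 at 66.2, Smad7 at 48.2, Smad4 at 40.2 and Smad1 at 12.3 per kilobase of exon. Between the activin-type mediators, the level of Smad3 was 3.67 times that of Smad2 per kilobase of exon. Between the BMP-type mediators, the level of Smad5 was 5.39 times that of Smad1 per kilobase of exon, and 3.66 times with the longest transcript as the length. No spread over follicles is at hand for these levels, so neighbours in the order cannot be said to differ. Fewer cells of a type and less RNA per cell cannot be told apart in whole follicles.

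**Figure D1:**
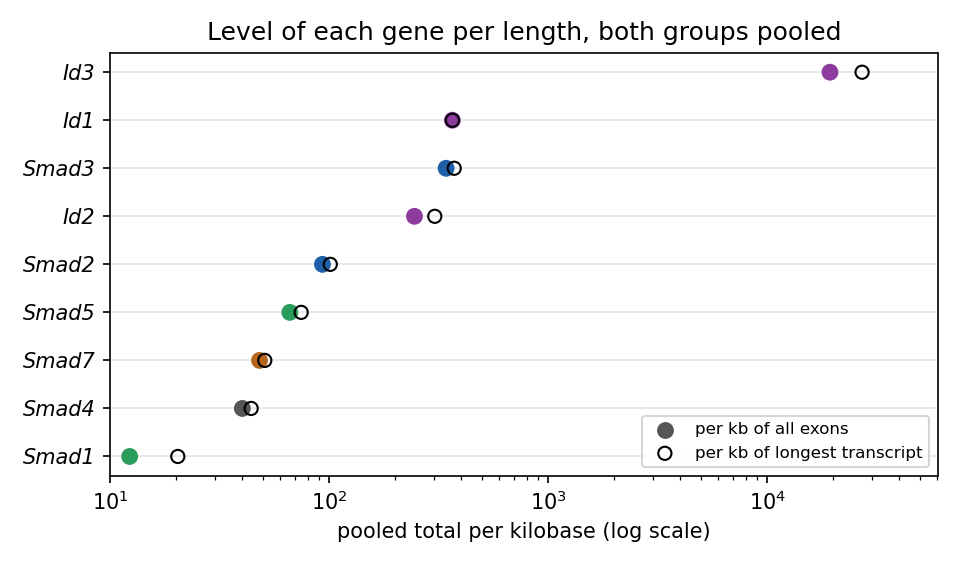
Pooled total per kilobase (log axis) for each of the 9 genes, with filled circles for the length of all exons and open circles for the longest transcript. Id3 stands at 19373 per kilobase of exon, and the other 8 genes lie between 12.3 and 366.

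Smad2 and Smad3, the mediators of activin, TGF-beta and GDF9, both had estimates below 0 in vitrified relative to fresh follicles. Smad3 had a total of 1898 and was 1.35-fold lower in vitrified follicles in the authors' deposited table, a log2 fold change of -0.43 (95% interval -0.87 to 0.00, p = 0.052, adjusted p = 0.72). This was the lowest p-value among the members, and the upper end of the interval, 0.0043, lies just above 0. Smad2, on a total of 819.5, stood at a log2 fold change of -0.39 (-0.91 to 0.12, adjusted p = 0.88) in the authors' deposited table. Of the tested genes, 10.2% had a log2 fold change as low as that of Smad3 or lower, and 12.01% one as low as that of Smad2. Neither interval reached a 2-fold change in either direction. Smad3 lies on chromosome 9 from 63646767 to 63757994 on the minus strand and Smad2 on chromosome 18 from 76241580 to 76310963 on the plus strand (GRCm38, GENCODE M21).

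Among the BMP-type mediators the estimates were on opposite sides of 0. Smad5, on a total of 491, had a log2 fold change of -0.38 (-0.86 to 0.10, p = 0.12, adjusted p = 0.87) in the authors' deposited table. Smad1 stood at 0.18 (-0.77 to 1.12, p = 0.72, adjusted p = 1.00) in the authors' deposited table, on a total of only 77.0, with the widest interval of the 9 genes. The upper end of that interval lies past a 2-fold higher level in vitrified follicles. Smad9, which encodes another BMP-type mediator and was counted with the response genes, stood at -0.23 (-0.82 to 0.36, adjusted p = 1.00) in the authors' deposited table, on a total of 344. Smad5 lies on chromosome 13 from 56703010 to 56742377 and Smad1 on chromosome 8 from 79338395 to 79399518. Within Smad5, 3 short annotated genes lie on the same strand, and another gene holds 0.68% of its 50-base windows. Apart from the 0.33% of windows that Id2 shares with Gm6175, the other 7 members shared 0 windows with any other gene, so paralogous SMAD genes shared none with each other.

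Smad4, the shared partner of both branches, had a total of 149 and a log2 fold change of -0.41 (-1.05 to 0.23, p = 0.21, adjusted p = 0.94) in the authors' deposited table. Its interval ran slightly past a 2-fold lower level. The gene lies on chromosome 18 from 73639009 to 73703780, and AC132418.2 overlaps it on the opposite strand, so reads of the 2 genes are uncertain there if counting ignored strand. Smad7, which blocks receptor-regulated SMADs at the receptor and is itself induced by the pathway, stood at 0.17 (-0.47 to 0.81, p = 0.59, adjusted p = 1.00) on a total of 218 in the authors' deposited table. The 4 SMAD genes with estimates below 0, Smad2, Smad3, Smad4 and Smad5, lay between -0.43 and -0.38, a range narrower than the derived standard error of any of them, 0.22 for Smad3 being the smallest.

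The ID genes did not share a direction. Id3 (chromosome 4, 136143497 to 136145755) stood at a log2 fold change of 0.32 (-0.12 to 0.76, p = 0.15, adjusted p = 0.90) in the authors' deposited table. Id1, on chromosome 2 from 152736251 to 152737410, stood at 0.23 (-0.31 to 0.77, p = 0.40, adjusted p = 1.00) on a total of 424 in the authors' deposited table. Id2 (chromosome 12, 25093799 to 25097140) was 1.34-fold lower in vitrified follicles in the authors' deposited table, a log2 fold change of -0.43 (-0.87 to 0.01, p = 0.057, adjusted p = 0.74) on a total of 598. All 3 intervals included 0 and none reached a 2-fold change. Whether the change of Id2 differs from that of Id1 or Id3 was not tested, since the table does not give how their values vary together over follicles.

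**Figure D2:**
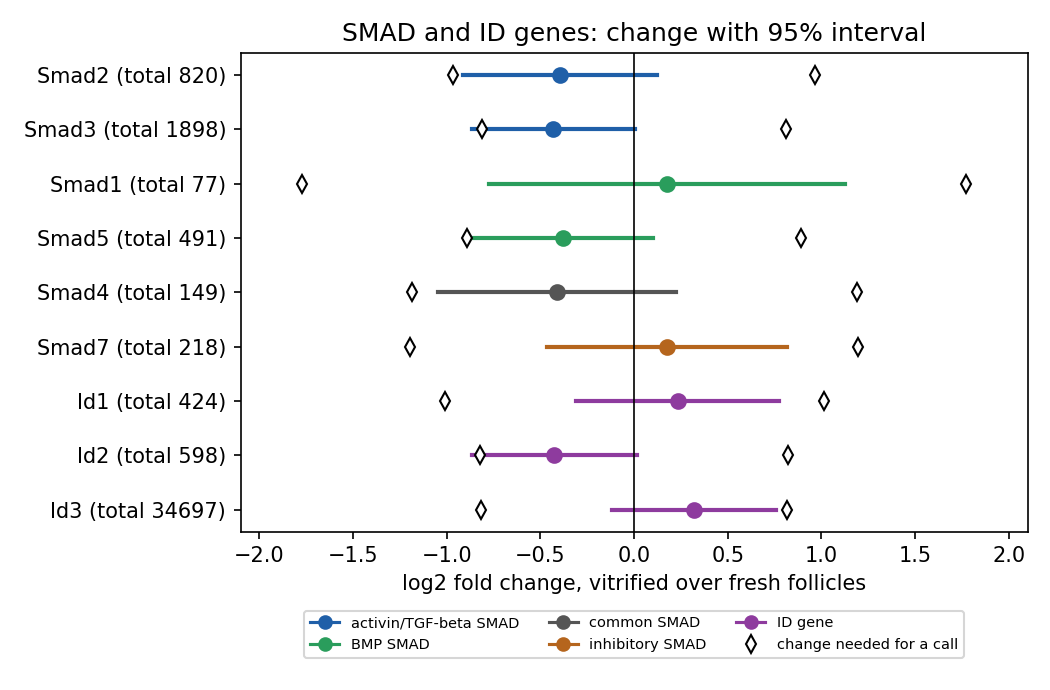
Log2 fold change of vitrified over fresh follicles for each gene, grouped by role, with circles for the authors' estimate, bars for the 95% interval derived from their p-value, and diamonds for the size of change that would pass the adjusted p at that gene's standard error. All 9 bars cross 0 and no circle reaches a diamond, with Smad3 nearest at -0.43 against the 0.81 needed.

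The depth and spread of the data set how small an estimated change could be called. With the derived standard errors, from 0.22 for Smad3 to 0.48 for Smad1, a member needed a change of between 1.76-fold (Smad3) and 3.41-fold (Smad1) to reach the p-value of 2.53e-04, the largest that passed among all genes. Id3, at the highest total, still needed 1.76-fold, with a standard error of 0.224 beside 0.222 for Smad3. The high total of Id3 thus did not make its comparison sharper than that of Smad3. The 95% interval lay wholly within 2-fold for 7 of the 9 members, the exceptions being Smad1 and Smad4. The sizes needed for a call apply to the estimates, and the power to call a true change of a given size was not computed. The intervals do not show that the levels were alike.

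**Figure D3:**
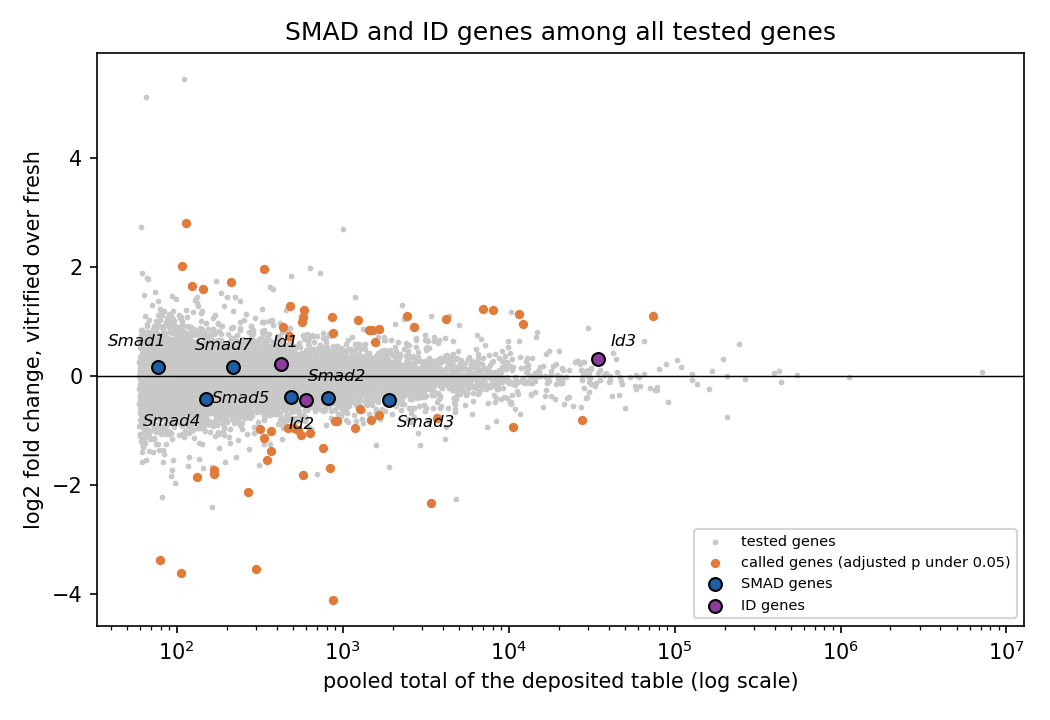
Log2 fold change of vitrified over fresh follicles against the pooled total (log axis) for the 10963 tested genes in grey, the 58 called genes in orange and the 9 members as outlined circles. The members lie within the grey band, between -0.43 and 0.32, at totals from 77.0 to 34697.

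The other genes of the pathway were counted by role, in 8 lists that hold 112 distinct genes. Of the 71 with an adjusted p, 0 passed the adjusted threshold. At an unadjusted p under 0.05 there were 8 with lower and 1 with higher values in vitrified follicles. In either direction this is 12.7% of the 71, beside 7.02% of all tested genes. The lists were chosen with earlier results of these data known. The higher share, and its direction, may therefore come from that choice, and no conclusion is drawn from it. That 7.02% is made up of 3.79% with lower and 3.24% with higher values. Splits by direction are given for each list below, where 53.2% of all tested genes had an estimate below 0. Whether any list departs from that share was not tested. Of 8 tested ligand genes, 0 passed the adjusted threshold, with 2 estimates below and 6 above 0 and a median of 0.12. Inhbb, which encodes the beta-B subunit of activin and inhibin, had a log2 fold change of -0.57 (p = 0.022, adjusted p = 0.53) in the authors' deposited table. The oocyte ligand gene Bmp15 stood at 0.58 (adjusted p = 0.98) and Bmp3 at 0.14 (adjusted p = 0.99) in the authors' deposited table.

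Receptor genes gave 0 of 12 past the adjusted threshold, with 7 estimates below and 5 above 0 and a median of -0.10. Bmpr1b and Bmpr2, a type I and a type II receptor for BMPs that also serve BMP15, had log2 fold changes of -0.63 (-1.09 to -0.17, p = 0.0073, adjusted p = 0.33) and -0.51 (p = 0.034, adjusted p = 0.63) in the authors' deposited table. The activin type I receptor gene Acvr1b stood at -0.82 (adjusted p = 0.88) on a total of 68.4 in the authors' deposited table. Among 8 antagonist genes 0 passed, with 6 estimates below and 2 above 0 and a median of -0.09. Fst, whose product follistatin binds activin, stood at -0.82 (p = 0.013, adjusted p = 0.45) in the authors' deposited table. Bambi, a decoy receptor and itself a target of the pathway, stood at 0.43 (p = 0.052, adjusted p = 0.72) in the authors' deposited table.

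Of 14 genes for the ubiquitination, dephosphorylation or anchoring of SMADs, 0 passed, with 7 estimates on each side of 0 and a median of 0.00. The ubiquitin ligase genes Smurf2 and Rnf111, the first of which limits SMAD signalling while the second promotes it by degrading SMAD7 and the SKI proteins, stood at -0.65 (p = 0.022, adjusted p = 0.53) and 0.50 (p = 0.022, adjusted p = 0.54) in the authors' deposited table. Usp9x, which encodes a deubiquitinase of SMAD4, stood at 0.31 (adjusted p = 1.00) in the authors' deposited table. Among 14 nuclear partners 0 passed, with 10 estimates below and 4 above 0 and a median of -0.13. Skil, a co-repressor gene that SMAD3 also induces, had the lowest p-value of all 8 lists, with a log2 fold change of -0.76 (-1.27 to -0.24, p = 0.0038, adjusted p = 0.24) in the authors' deposited table. Foxl2, a granulosa cell transcription factor that acts with SMAD3, stood at -0.40 (adjusted p = 0.82) and the chromatin remodeller gene Smarca4 at -0.47 (adjusted p = 0.84) in the authors' deposited table.

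Response genes outside the ID family gave no call either. In the BMP list 0 of 3 passed and all 3 estimates lay below 0, with Hey1 at -0.92 (p = 0.064, adjusted p = 0.77), Hes1 at -0.27 and Smad9 as given above in the authors' deposited table. In the TGF-beta and activin list 0 of 8 passed, with 6 estimates below and 2 above 0 and a median of -0.27. Ccn1, a matricellular protein gene, stood at -0.82 (-2.08 to 0.44), the matrix gene Thbs1 at -0.58 (-1.82 to 0.65) and the smooth muscle actin gene Acta2 at -0.67 (-2.41 to 1.07) in the authors' deposited table. Of the 4 tested genes for E proteins and other basic helix-loop-helix factors 0 passed. Tcf4 stood at -0.33 (p = 0.021, adjusted p = 0.53), Tcf3 at 0.43 (p = 0.067, adjusted p = 0.78) and Tcf12 at 0.20 (adjusted p = 1.00) in the authors' deposited table, all 3 being E proteins that ID proteins bind.

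**Figure D4:**
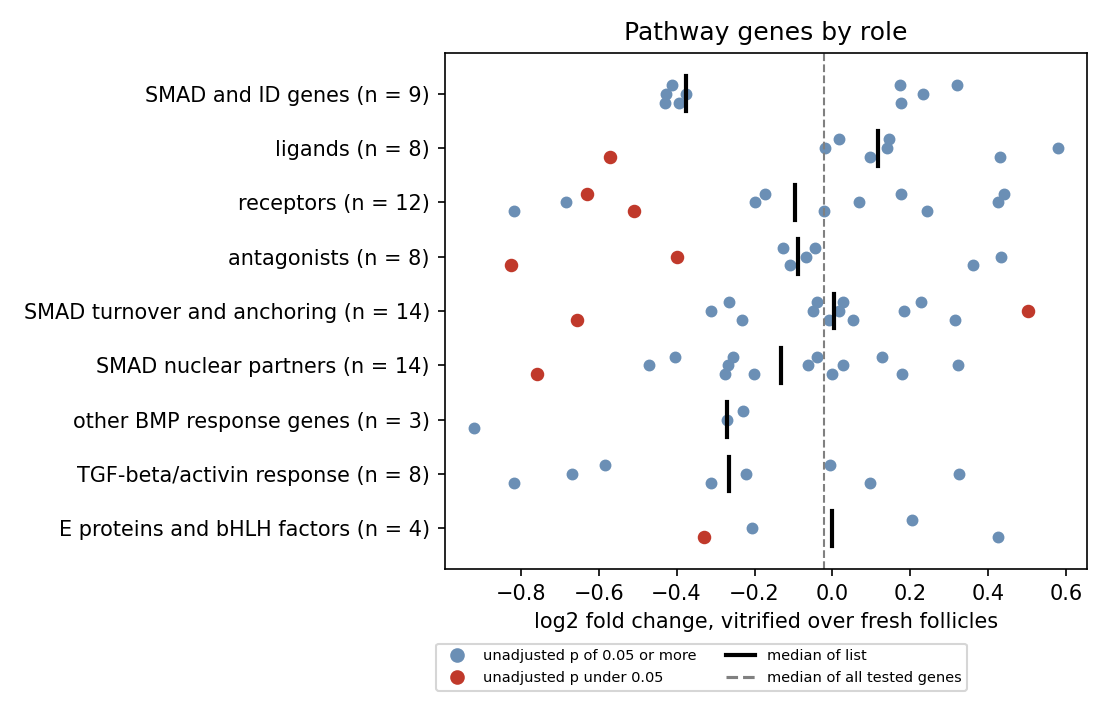
Log2 fold change of vitrified over fresh follicles for the tested genes of each role, with red points at an unadjusted p under 0.05, black bars for list medians and a dashed line for the median of all tested genes at -0.02. The SMAD and ID genes fall into 5 values between -0.43 and -0.38 and 4 above 0, and Skil at -0.76 is the only red point among the nuclear partners.

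Markers of the cells a follicle can hold were measured in the same comparison. Granulosa markers had rows for 9 of 10 genes, with 4 estimates above and 5 below 0 and a median of -0.02. Inha and Gja1 stood at -0.02 and 0.03 in the authors' deposited table. At an unadjusted p under 0.05 there were 1 higher, the follicle-stimulating hormone receptor gene Fshr at 0.67 (p = 0.013), and 1 lower, Fst as given above, in the authors' deposited table. Theca markers had 6 of 8 estimates above 0 with a median of 0.83, and the 2 of highest total, Hsd3b1 and Cyp11a1, stood at -0.11 and 0.47 in the authors' deposited table. At an unadjusted p under 0.05 there were 3, all higher, the hormone gene Insl3 at 2.70 (p = 0.0012, adjusted p = 0.14), the cholesterol transfer gene Star at 1.60 (p = 8.2e-04, adjusted p = 0.11) and the retinaldehyde dehydrogenase gene Aldh1a1 at 1.19 (p = 6.8e-04, adjusted p = 0.098), in the authors' deposited table. Fshr and these 3 were chosen after their values were seen. Hsd3b1 had a total of 435485, beside 1009 for Insl3, in the authors' deposited table. Which cells gave the RNA of the genes listed as theca markers was not tested. Oocyte markers had all 6 tested estimates above 0 and a median of 0.81, with Padi6 at 1.24 and Gdf9 at 0.43 in the authors' deposited table. Of these 6, 0 passed at an unadjusted p under 0.05. The 2 oocyte markers without an adjusted p lay on opposite sides of 0. Nlrp5 stood at 0.92 on a total of 53.7 in the authors' deposited table. Dazl stood at -2.14 (-3.56 to -0.73) on a total of 44.3 in the authors' deposited table, an interval wholly below 0. Endothelial markers had all 8 tested estimates below 0 and a median of -0.75. The 9 with a row, 1 of them without an adjusted p, had a summed total of 2783, of which Cdh5 gave 1912. Cdh5 stood at -1.66 (-3.45 to 0.13) and Eng at -0.68 (-2.43 to 1.07) in the authors' deposited table. Stroma markers had 3 of 6 above 0, with Col1a2 at -0.05 and Dcn at 0.12 in the authors' deposited table. Of the mural markers, Acta2 is given above and Cspg4 stood at -0.14 in the authors' deposited table. Tagln, also on the TGF-beta and activin response list, stood at -3.27 (-5.88 to -0.65, p = 0.014) in the authors' deposited table. Its total was only 27.8, and it had no adjusted p. Nlrp5, Dazl and Tagln were named after their values were seen. The 1 immune marker with a row, Lyz2, stood at -1.05 (p = 0.040, adjusted p = 0.67) in the authors' deposited table. No marker passed the adjusted threshold, and the part of these cell types in the values of the SMAD and ID genes was not tested.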

How the data were processed

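RNA of 12 single follicles, 6 vitrified and 6 fresh, was sequenced from Smart-seq libraries, per the labels' protocols. The build mm10 and the tools Bowtie2, HISAT2, Partek and DESeq2 stand in the submitters' processing notes, without versions or roles. The sources used here do not give how reads were counted, or whether by strand. The columns deposited by the authors are, per the file headers, a total count, a p-value, a step-up adjusted p, and the change of vitrified over fresh as a signed fold and as log2. The log2 and signed fold columns differed by more than 1e-06 in 0 genes. Only 0.237% of the totals were whole within 0.001, so they were not used as counts, and they summed to 23783958. An adjusted p is missing for 843 genes, with totals up to 59.4.

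Standard errors and 95% intervals were derived from each deposited log2 fold change and p-value, on the assumption of a two-sided normal test. This step and the Benjamini-Hochberg function were tested on simulated data. Those data were drawn from a normal distribution, so they check the arithmetic and cannot check the assumption of a normal test. Coordinates, exon lengths and 50-base windows came from GENCODE M21 (GRCm38), and promoters from RefSeq. Promoters of members on chromosome 18 (Smad2, Smad4 and Smad7) were left out, and 5 of the 9 members had a promoter window that was used. Python 3.11.15, SciPy 1.17.1 and pandas 2.3.3 were used. The members, the lists and the tests were chosen with earlier results of these data known. Named were all members, the 3 genes of lowest p in each pathway list, Smad9, and the 2 markers of highest total in each list. Of the genes so named, 1 is not reported here.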

Additional observations from a re-analysis of the deposited data

How the results depend on the processing

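No paired analysis was possible because the table holds 1 comparison and no value per follicle, and leaving out each replicate was not run for the same reason. The count of members called was 0 under each of the 5 alternatives tried, which were no limit on totals, a total of at least 120 (8 members left), a threshold of 0.10, an unadjusted p under 0.05, and a t distribution with 10 degrees of freedom in place of the normal. None of these settings could have given a call. The lowest member p in the authors' test was 0.052 and the lowest adjusted p 0.72. An adjusted p cannot fall below its p, and the t distribution only raises p. The count of 0 is therefore no test of how stable the result is. Over all genes the count of 58 became 770 at an unadjusted p under 0.05 and 0 with the t distribution, whose heavier tails leave a lowest adjusted p of 0.064. The sources used here do not state the reference distribution of the authors' test. Whether 10 degrees of freedom apply to it is therefore unknown, and this 0 does not show that the 58 calls fail. For pathway genes the count of 0 became 9 at an unadjusted p under 0.05. Centring fold changes on all genes or on the 500 genes nearest in total moved no member by more than 0.033 and turned no direction. The median over members, -0.38, was -0.10 without Smad2, Smad3, Smad4 or Id2 (-0.1014 in each case) and -0.11 without Smad5. With a t distribution the interval of Smad3 ran from -0.93 to 0.06 and that of Id2 from -0.93 to 0.07.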
